A study of Mus musculus with 4 samples.

Results

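The CHD genes were examined in long-read RNA libraries from the dorsal and medial palliums of E11.5 mouse embryos, the future neocortex and hippocampus. The family was taken by gene identifier as Chd1 to Chd9, which gave 9 of the 16449 genes with a count row, all of them protein-coding. It was selected on the counts of Chd5, known to be higher in the libraries labelled Tut1 knockout, so that the values of all 9 genes between the groups are given as a description. No p-value is given for them, and whether a member passed the threshold is not evidence of a difference. The groups were 2 wild-type (WT) controls and 2 libraries labelled as Tut1 knockout, called KO-labelled here. Tut1 encodes the terminal uridylyl transferase that extends the 3′ end of U6 snRNA, a core RNA of the spliceosome. The study lists every library, controls included, as homozygous for a floxed Tut1 allele (Tut1 fl/fl), in which loxP sites flank an early exon. KO-labelled embryos also carried Emx1-Cre, which acts in the neural stem cells of the dorsal telencephalon and not in every cell of the dissected tissue. The labels of the samples name the controls WT without further detail, and the number of embryos in each library is not stated. Statistics therefore measure the spread between these libraries, which may in part be technical.

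CHD proteins couple an ATP-driven helicase motor of the SNF2 type to paired chromodomains, and use it to slide, space or evict nucleosomes. Chd1 and Chd2 form a first subfamily with a DNA-binding domain. Chd3, Chd4 and Chd5 form a second, and serve as alternative ATPases of the nucleosome remodeling and deacetylase (NuRD) complex, which joins remodeling to the removal of histone acetyl groups. Chd6, Chd7, Chd8 and Chd9 form the last. In the embryonic cortex Chd4 is the NuRD ATPase best known from dividing progenitors, whereas Chd5 is known as a gene of neurons.

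Because the comparison within NuRD rests on assigning reads to 3 related genes, the stretch around a run of 20 bases that Chd3, Chd4 and Chd5 share exactly is shown. The stretches are 100 bases of the coding sequence of the longest coding transcript, written 5′ to 3′ on the sense strand and spliced across an intron, from GENCODE M21 on GRCm38. Capitals mark the 69 positions at which all 3 genes have the same base. The Chd3 stretch spans exons 20 and 21 (chr11:69354435-69355390, minus strand), the Chd4 stretch exons 21 and 22 (chr6:125110091-125110300, plus strand) and the Chd5 stretch exons 20 and 21 (chr4:152373526-152374379, plus strand).
Chd3: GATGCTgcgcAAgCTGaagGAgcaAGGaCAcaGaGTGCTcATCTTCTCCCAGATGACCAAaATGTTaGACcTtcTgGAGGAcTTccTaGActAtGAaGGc
Chd4: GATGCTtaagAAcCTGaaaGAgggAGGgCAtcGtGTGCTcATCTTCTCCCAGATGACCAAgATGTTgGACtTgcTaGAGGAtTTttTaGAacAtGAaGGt
Chd5: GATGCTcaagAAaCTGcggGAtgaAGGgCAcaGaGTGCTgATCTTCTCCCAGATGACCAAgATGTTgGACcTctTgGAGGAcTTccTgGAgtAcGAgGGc

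Even in this conserved stretch, Chd5 differed from Chd3 at 19 bases and from Chd4 at 24 bases, and Chd3 differed from Chd4 at 23. Over whole longest transcripts, the longest run of identical bases was 35 between Chd3 and Chd4, 30 between Chd4 and Chd5 and 29 between Chd3 and Chd5. Across all 36 pairs of CHD genes the longest run ranged from 13 to 35 bases, with a median of 17. How reads that matched several genes were counted is not stated.

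Total counts ranged from 305642 to 397150 per library, and the 5878 genes abundant enough to be tested had a median of 19 to 25 counts per library. These totals are a small part of the reads that the study describes for the libraries, and what became of the rest is not stated. WT replicate 1 was the only library with counts of Xist (64) and without counts of 4 Y-linked genes, so that sex differed within WT and no KO-labelled library was female. Counts of Tut1 itself were 6 and 11 in WT against 29 and 25 in the KO-labelled libraries, or 24.4 ± 8.9 and 81.9 ± 6.9 CPM (counts scaled to library size; mean ± SD, n = 2 each). Tut1 was higher in the KO-labelled libraries, by 1.71 ± 0.40 on the log2 scale (SE; edgeR quasi-likelihood test, adjusted p = 0.0113), opposite to a loss of the transcript, although it met the minimum count for testing in both KO-labelled libraries and not in WT replicate 1. Whether the floxed exon was present cannot be read from a count per gene, and every direction given here follows the labels. Without WT replicate 1 the adjusted p for Tut1 was 0.133, and it was 0.200 and 0.160 without KO-labelled replicates 1 and 2. In tissue of mixed cell types, fewer cells of a type and less RNA per cell cannot be told apart.

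All 9 CHD genes were detected in all 4 libraries, and all 9 were abundant enough to be tested, Chd5 without reaching the minimum count in WT replicate 1. Their summed level was 2120 and 2299 CPM in WT against 2230 and 2584 CPM in the KO-labelled libraries, so that the ranges of the groups overlapped. Apart from Chd5, no CHD gene had fewer than 11 counts in any library. The highest count of the family was 262, for Chd2. A single CHD gene, Chd5, passed the threshold between the groups (1 of 9), beside 2.06% of all tested genes (edgeR quasi-likelihood test, adjusted p below 0.05, in either direction) and 1.4% that were higher in the KO-labelled libraries. Since the family was chosen for Chd5 in this same comparison, nothing is read from that count.

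**Figure D1:**
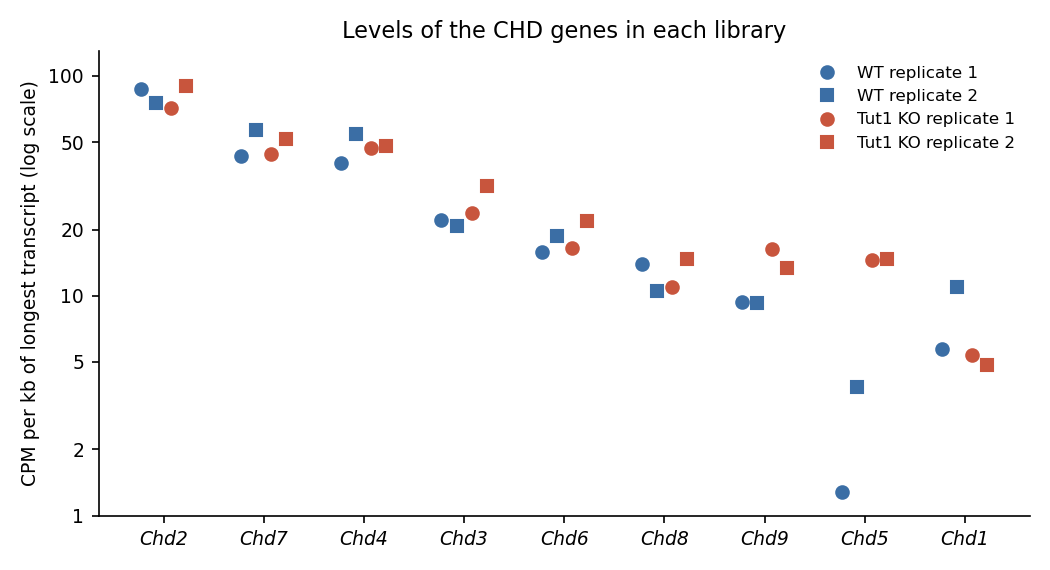
Level of each CHD gene in each library, in CPM per kilobase of the longest annotated transcript on a log scale, with genes ordered by their mean over the 4 libraries. Blue symbols are WT, red symbols are the KO-labelled libraries, circles are replicate 1 and squares replicate 2. Chd2 lay highest in every library, at 71.7 to 90.2, and Chd5 ran from 1.28 in WT replicate 1 to 14.6 in both KO-labelled libraries.

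To set the genes side by side, levels were divided by the length of the longest annotated transcript. On this scale of CPM per kilobase, Chd2 was the most abundant, with a mean of 81.1 over the 4 libraries (range, 71.7 to 90.2). Chd7 followed at 48.9 and Chd4 at 47.4, and their ranges of 43.3 to 56.9 and 40.3 to 54.6 CPM per kilobase overlapped. Chd3 at 24.6 and Chd6 at 18.2 CPM per kilobase also overlapped each other, and both lay below Chd4 and Chd7 in every library. The lowest levels were those of Chd8 (12.5), Chd9 (12.1), Chd5 (8.58) and Chd1 (6.72 CPM per kilobase), among which the ranges of neighbours in the order overlapped. Within WT, Chd5 was the lowest member at 2.55 CPM per kilobase, with both libraries below both values of Chd1. In the KO-labelled libraries it was in place 7 at 14.6 CPM per kilobase, level with Chd9 at 14.8 and Chd8 at 12.8.

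The order depended on which length was used. A long read can cover much of a transcript, so that counts need not grow with its length, and without any division by length Chd2, Chd7 and Chd4 kept ranks 1 to 3 at 736, 499 and 317 CPM. Divided by the median transcript length, which is short for genes with many small annotated isoforms, Chd6 moved from rank 5 to rank 3, at 250.0 CPM per kilobase, and Chd7 from rank 2 to rank 4, at 171. Chd5 was in place 8 or 9 on these other scales.

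The first subfamily was represented by 1 abundant and 1 scarce gene. Chd2 (GRCm38 chr7:73426638-73541830), a remodeler that binds active chromatin and whose human counterpart is mutated in childhood epilepsies, had 262 and 244 counts in WT against 245 and 236 counts in the KO-labelled libraries. The corresponding levels of 794 and 682 CPM in WT lay within the range of 651 to 820 CPM of the KO-labelled libraries. The log2 fold change of Chd2 was −0.01 ± 0.15, with a 95% interval from −0.32 to 0.30, so that a change of 2-fold lay outside it in either direction. Its sign depended on the scaling of the libraries, since with total counts alone the value was 0.05.

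Chd1 (chr17:15704967-15772610), which recognises methylated histone H3 at active promoters, had 15 and 31 counts in WT against 16 and 11 counts in the KO-labelled libraries. In CPM these were 45.4 and 86.6 against 42.5 and 38.2, so that both KO-labelled libraries lay below both WT libraries, by a small margin to WT replicate 1. For Chd1 this gave a log2 fold change of −0.71 ± 0.39, with an interval from −1.49 to 0.07. It was −1.09 without WT replicate 1 and −0.17 without WT replicate 2.

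Within NuRD, the 3 ATPase genes differed. Chd5 (chr4:152338651-152390194) had 4 and 13 counts in WT against 52 and 40 counts in the KO-labelled libraries. In CPM these were 12.1 and 36.3 against 138 and 139, or 24.2 ± 17.1 against 138.6 ± 0.52 (mean ± SD, n = 2 each). Both KO-labelled libraries lay above both WT libraries, while the WT libraries differed from each other by a factor of 3.00. The log2 fold change of Chd5 was 2.47 ± 0.37, with a 95% interval from 1.72 to 3.22, and the ratio of the group means in CPM was 5.72. The size of the difference rested on the WT libraries, with a log2 fold change of 1.91 without WT replicate 1 and 3.46 without WT replicate 2. WT replicate 1, the only library with Xist, also had the lowest Chd5 level. Against WT replicate 2 alone, in a comparison without any library that had Xist counts, the difference was the value of 1.91.

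Chd3 (chr11:69343273-69369406) had 53 and 54 counts in WT against 65 and 66 counts in the KO-labelled libraries. In CPM these were 161 and 151 against 173 and 229, so that the groups did not overlap, although the gap was small beside the spread of the KO-labelled libraries. For Chd3 the log2 fold change was 0.35 ± 0.24, with an interval from −0.13 to 0.84. It was 0.56 without KO-labelled replicate 1 and 0.15 without KO-labelled replicate 2. Chd4 (chr6:125095981-125130591), the most abundant of the NuRD ATPase genes, had 89 and 131 counts in WT against 118 and 92 counts in the KO-labelled libraries. Its levels of 314 and 320 CPM in the KO-labelled libraries fell between the WT values of 270 and 366 CPM. For Chd4 the log2 fold change was −0.01 ± 0.19, with an interval from −0.40 to 0.38, and it was 0.05 when libraries were scaled by total counts alone.

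The log2 fold changes of the NuRD ATPase genes were thus 2.47 for Chd5, 0.35 for Chd3 and −0.01 for Chd4. Chd5 made up 2.74% of all Chd3, Chd4 and Chd5 counts in WT replicate 1 (4 of 146, 95% Wilson interval 1.07 to 6.83%) and 6.57% in WT replicate 2 (13 of 198, 3.88 to 10.9%). In the KO-labelled libraries it made up 22.1% (52 of 235, 17.3 to 27.9%) and 20.2% (40 of 198, 15.2 to 26.3%). These intervals cover counting error only. The mean share was 4.65 ± 2.71% in WT and 21.2 ± 1.36% in the KO-labelled libraries. Divided by transcript length, which lowers the weight of the longer Chd5 transcript, these means were 3.42% and 16.4%.

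**Figure D2:**
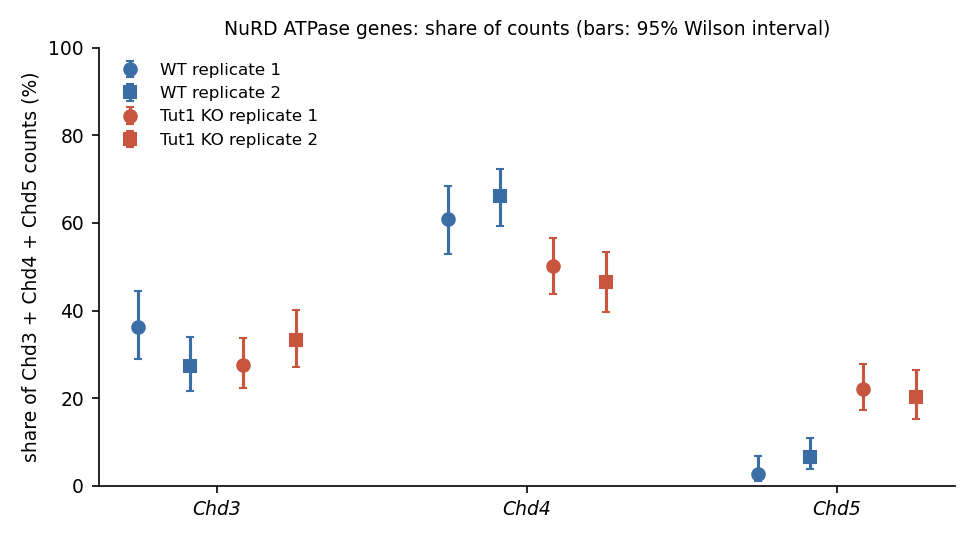
Share of Chd3, Chd4 and Chd5 in the summed counts of these 3 genes, in percent, in each library, with 95% Wilson intervals for counting error as bars. Blue symbols are WT and red symbols the KO-labelled libraries. The share of Chd5 was 2.74 and 6.57% in WT against 22.1 and 20.2% in the KO-labelled libraries, and that of Chd4 was 61.0 and 66.2% against 50.2 and 46.5%.

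The share of Chd4 was correspondingly lower in the KO-labelled libraries, at 50.2 and 46.5% against 61.0 and 66.2% in WT. The share of Chd3 overlapped between the groups, at 27.7 and 33.3% against 36.3 and 27.3%. As a level in CPM rather than a share, Chd3 and Chd4 together had 430 and 517 in WT against 486 and 549 in the KO-labelled libraries. The ranges of the groups overlapped. With Chd5 added, the sum was 442 and 553 CPM in WT against 625 and 688 CPM in the KO-labelled libraries. Within the whole family, Chd5 took 0.571 and 1.58% of counts in WT against 6.20 and 5.38% in the KO-labelled libraries.

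The last subfamily contained the next largest difference after those of Chd5 and Chd1. Chd9 (chr8:90828352-91054516), a large remodeler first described in skeletal progenitors, had 37 and 40 counts in WT against 74 and 46 counts in the KO-labelled libraries. In CPM these were 112 in each WT library against 197 and 160, and the groups did not overlap. Chd9 had a log2 fold change of 0.68 ± 0.25, with an interval from 0.17 to 1.19. It ranged from 0.51 to 0.81 when each library was left out in turn.

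Chd7 (chr4:8690406-8867659), whose human counterpart is mutated in CHARGE syndrome and which binds enhancers of neural and neural crest genes, had 146 and 208 counts in WT against 169 and 151 counts in the KO-labelled libraries. Its levels of 449 and 524 CPM in the KO-labelled libraries lay between the WT levels of 442 and 581 CPM. Chd7 had a log2 fold change of −0.08 ± 0.17, with an interval from −0.43 to 0.27. Chd6 (chr2:160946978-161109075), linked to the response to oxidative stress, had 55 and 70 counts in WT against 65 and 66 counts in the KO-labelled libraries, and a log2 fold change of 0.13 ± 0.23 (interval, −0.34 to 0.61).

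Chd8 (chr14:52198151-52257780), a binding partner of β-catenin whose human counterpart is among the genes most often mutated in autism, had 39 and 32 counts in WT against 35 and 36 counts in the KO-labelled libraries. Its log2 fold change was 0.06 ± 0.28, with an interval from −0.52 to 0.63. The values of Chd7 and Chd8 changed sign when single libraries were left out, as did that of Chd6.

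**Figure D3:**
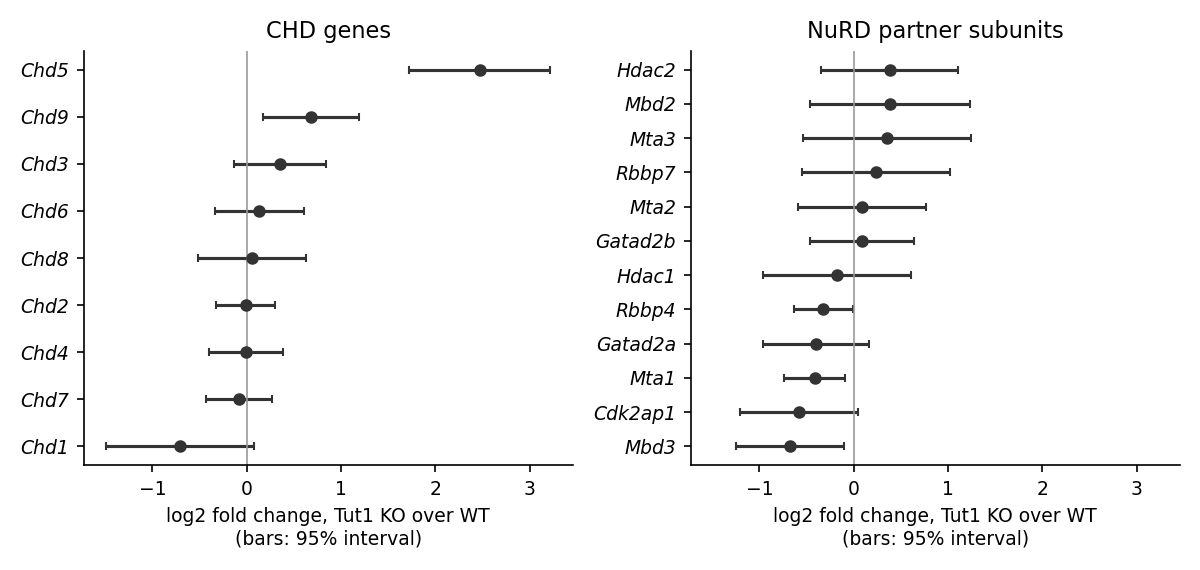
Log2 fold change of the 9 CHD genes (left) and of the 12 tested partner subunits of NuRD (right), libraries labelled Tut1 knockout over WT, with points at the edgeR estimate and bars for the 95% interval. The estimate was 2.47 for Chd5 and ranged from −0.71 for Chd1 to 0.68 for Chd9 among the other CHD genes, and from −0.67 to 0.38 among the partners.

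Across the 9 genes, the estimate was above 0 for 5 and below 0 for 4, and the 95% interval lay inside a 2-fold change for 6. The libraries of the groups did not overlap for 4 of the 9, Chd3, Chd5 and Chd9 being higher and Chd1 lower in the KO-labelled libraries. Among all tested genes 42.9% did not overlap, 22.1% being higher and 20.8% lower in the KO-labelled libraries. The median log2 fold change was 0.06 for the 9 genes, 0.02 for the 8 other than Chd5 and −0.01 for all tested genes.

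Chd3 and Chd4 act together with deacetylases, histone-binding proteins and scaffold subunits, and these partners were examined as a list. Of 13 partner genes with a count row, 12 were tested and none passed the threshold by edgeR or limma-voom. DESeq2 called none either, but gave 5 of them no adjusted p. At an unadjusted p below 0.05 there were 3 by edgeR, 1 by DESeq2 and 3 by limma-voom, beside 14.2%, 3.32% and 13.6% of all tested genes, and nothing is read from such small counts. Their median log2 fold change was −0.04, beside −0.01 for all tested genes, with 6 estimates above 0 and 6 below. The most abundant partners were Rbbp4, a histone chaperone, and Mta1, a scaffold for the deacetylases. Rbbp4 had 803 and 676 CPM in WT against 601 and 580 CPM in the KO-labelled libraries, a log2 fold change of −0.32 ± 0.15. Mta1 had 718 and 637 CPM in WT against 518 and 497 CPM in the KO-labelled libraries, a log2 fold change of −0.41 ± 0.16. For both genes each KO-labelled library lay below each WT library.

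The largest estimates among the partners were those of Mbd3, the methyl-CpG-binding-domain subunit, and Cdk2ap1, a small accessory subunit. Mbd3 had 145 and 123 CPM in WT against 98.3 and 66.0 CPM in the KO-labelled libraries (log2 fold change −0.67 ± 0.28, edgeR adjusted p = 0.242). Cdk2ap1 had 90.9 and 106 CPM against 74.4 and 55.6 CPM (−0.58 ± 0.31, adjusted p = 0.415). Both lay lower in the KO-labelled libraries without overlap, and neither passed the threshold. Gatad2a also lay lower without overlap, whereas Hdac2, Mbd2 and Mta3 lay higher without overlap. Among all tested genes, 20.8% lay lower and 22.1% higher without overlap, so that nothing is read from the direction of the partners named.

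Outside NuRD, Chd4 also joins Adnp and heterochromatin proteins of the HP1 family in the ChAHP complex. The list took Adnp and all HP1 genes, 4 in total, and the part of each in this complex was not tested. Among these, Cbx5 encodes HP1α, and had 285 and 290 CPM in WT against 167 and 170 CPM in the KO-labelled libraries. The log2 fold change of Cbx5, −0.77 ± 0.21, passed the threshold (adjusted p = 0.0448, edgeR), beside 0.663% of all tested genes that passed the threshold in this direction. The call lay close to the threshold and was lost under several alternatives, by DESeq2 and without any 1 of the 4 libraries among them. The other 3 did not pass it, with log2 fold changes of −0.49 ± 0.20 for Cbx3, 0.02 ± 0.16 for Cbx1 and 0.19 ± 0.41 for Adnp.

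Chd5 is known as a gene of neurons, and markers of the cell types that the dissected tissue could hold were therefore set beside it. Of 24 neuron markers, 15 were tested and 2 were called higher in the KO-labelled libraries, beside 1.4% of all tested genes, namely Mapt, which encodes the microtubule-binding protein tau, and Dcx, a microtubule-associated protein of young neurons. Of the 15, 6 met the minimum count in both KO-labelled libraries and not in both WT libraries, and none the other way round, so that the filter favoured markers that were higher there. The median estimate of 0.65 on the log2 scale, with all 15 above 0, is therefore only a description. Over all 24 markers without a filter, the mean level was higher in the KO-labelled libraries for 20, lower for 3 and at 0 in both for 1. Without WT replicate 1, 2 neuron markers were called, as against 4 without WT replicate 2 and 1 without either KO-labelled replicate. DESeq2 called 1 of them (Mapt) but gave 6 of the 15 no adjusted p, and limma-voom called 3. Mapt had 33 and 43 counts in WT against 162 and 101 in the KO-labelled libraries (log2 fold change 1.83 ± 0.22, adjusted p = 8.85e-07), and Dcx had 109 and 101 CPM against 229 and 243 CPM (1.17 ± 0.24, adjusted p = 0.00461). The neuron marker Nefl was at 0 in all 4 libraries and Reln, the marker of Cajal-Retzius cells, in both WT libraries.

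The summed level of the 24 neuron markers was 1866 and 1740 CPM in WT against 2862 and 2636 CPM in the KO-labelled libraries, a ratio of group means of 1.53 beside the ratio of 5.72 for Chd5. Map2, the most abundant of them, had 754 and 690 CPM against 845 and 715 CPM (log2 fold change 0.12 ± 0.15), and weighed on this ratio. Mapt had the largest difference, and without it the sums were 1766 and 1620 CPM against 2432 and 2285 CPM. Expressed as a percentage of the neuron marker sum, the level of Chd5 was 0.649 and 2.09% in WT against 4.83 and 5.27% in the KO-labelled libraries. The part of neuron content in the level of Chd5 was not tested.

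**Figure D4:**
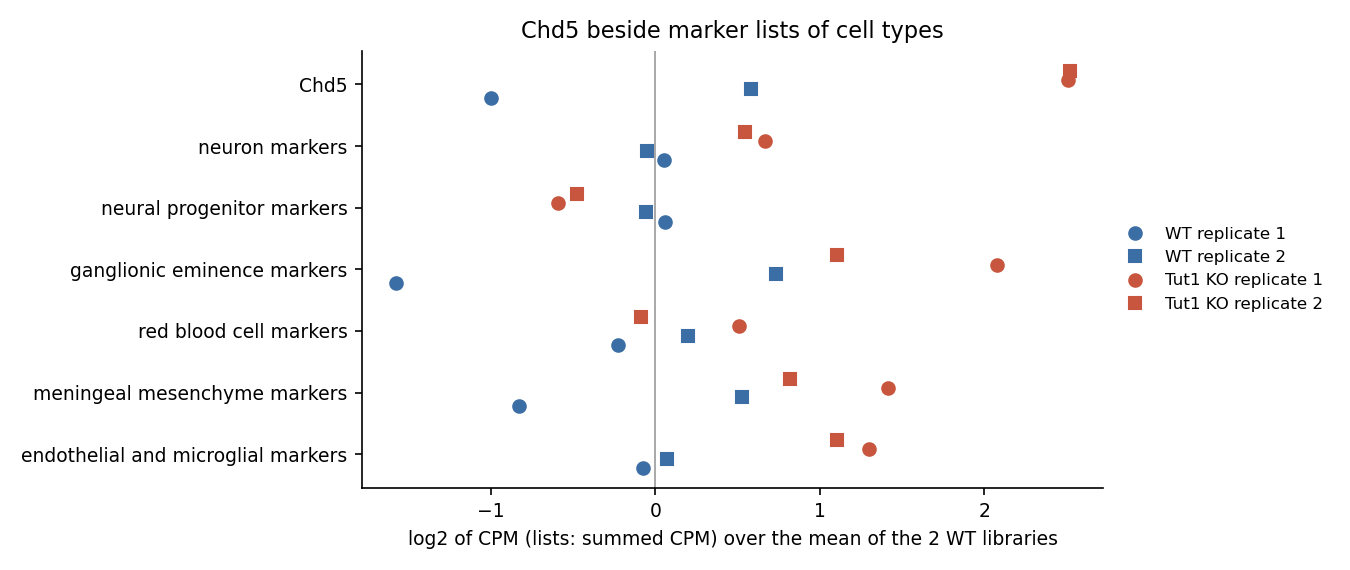
Chd5 and the summed levels of 6 marker lists in each library, as log2 of CPM over the mean of the 2 WT libraries. Blue symbols are WT, red symbols the KO-labelled libraries, circles replicate 1 and squares replicate 2. Chd5 and the neuron, ganglionic eminence, meningeal mesenchyme and endothelial and microglial lists lay higher in both KO-labelled libraries than in both WT libraries, the neural progenitor list lay lower, mostly through Lhx2, and the red blood cell list overlapped.

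Lists of other cell types were set beside the CHD genes in the same way. Of 16 listed progenitor markers of the labelled tissue, 14 had a count row, and at most 1 of these was at 0 in any library. Of 14 neural progenitor markers with a count row, 11 were tested, with a median log2 fold change of −0.30 and 1 call, Lhx2, a selector gene of the dorsal telencephalon that had 1054 and 760 CPM in WT against 282 and 368 CPM in the KO-labelled libraries. Their sum was 2656 and 2450 CPM against 1695 and 1830 CPM. Lhx2 carried most of this difference, since without it the sum was 1602 and 1690 CPM against 1414 and 1462 CPM. The endothelial and microglial markers summed to 257 and 285 CPM in WT against 667 and 583 CPM in the KO-labelled libraries, with 3 of 12 genes called higher, the microglial genes Cx3cr1, Aif1 and Csf1r. The other microglial genes of the list, C1qa, C1qb and C1qc, had at most 5 counts in any library and were not tested. Markers of meningeal mesenchyme summed to 93.9 and 240 CPM against 446 and 295 CPM, with 1 of 7 called higher (Col1a2).

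Genes of the ganglionic eminence, the neighbouring ventral territory, summed to 15.1 and 75.4 CPM in WT against 191 and 97.2 CPM in the KO-labelled libraries, with 1 of 7 called higher (Dlx1). Without Dlx1 the groups overlapped, at 15.1 and 53.1 CPM against 101 and 48.6 CPM. Of the 7, 6 were at 0 in WT replicate 1. The genes tested in these 3 lists numbered 5, 3 and 2, and 3, 2 and 2 of them met the minimum count in both KO-labelled libraries but not in both WT libraries, so that no rate of calls is read from them. The red blood cell markers summed to 1378 and 1852 CPM against 2296 and 1521 CPM, with 6 of 8 tested and 1 called lower by edgeR (Hbb-bh1). Of the 6 estimates 4 were above 0, and limma-voom called Hba-x higher beside Hbb-bh1 lower. Without KO-labelled replicate 1, no gene of the progenitor, endothelial and microglial, meningeal, ganglionic eminence or red blood cell lists was called by edgeR. With all 4 libraries, DESeq2 called Lhx2 and no gene of the other 4 of these lists. It gave no adjusted p to Cx3cr1, Aif1, Col1a2, Dlx1 and Hbb-bh1, nor to 4 of the 11 tested progenitor markers. After thinning the counts to the smallest library, edgeR called no gene of the meningeal or red blood cell list. The part of these cell types in the levels of the CHD genes was not tested.

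The 5 tested genes whose profile over the 4 libraries was most like that of Chd5 were Stk19, Cbln2, Tyrobp, Cdkn1a and Dhrs3, by Euclidean distance between centred log2 CPM (0.299, 0.300, 0.436, 0.637 and 0.639). Stk19 had the same counts as Chd5 in WT, 4 and 13, and 58 and 52 counts in the KO-labelled libraries. Tyrobp, a signalling adaptor of microglia and other myeloid cells, had 1 and 4 counts in WT against 16 and 13 in the KO-labelled libraries. Cdkn1a, which encodes the cell cycle inhibitor p21 and is a target of p53, had 5 and 13 counts in WT against 37 and 27 in the KO-labelled libraries. Likeness over 4 libraries of these depths is a description, since WT replicate 1 lay lowest for each of these genes.

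Genes that overlap CHD genes were checked because the use of strand in counting is not stated. The one with more than a few counts was 1810026B05Rik (chr7:73539203-73558395, minus strand), a noncoding transcript that overlaps exons of Chd2 on the same strand. It had 11 and 15 counts in WT against 13 and 10 counts in the KO-labelled libraries (log2 fold change −0.12), few beside the 236 to 262 counts of Chd2. Gm44553 and C130083A15Rik within Chd2, Gm23751 within Chd4, Snord8 within Chd8 and Gm45643 within Chd9 had at most 2 counts in any library. No annotated gene with counts overlapped Chd5.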

How the data were processed

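The deposited counts are raw reads per gene. The authors sequenced poly(A)-enriched RNA by Nanopore and aligned the reads with minimap2 2.24 against the Ensembl 102 mouse transcriptome (GRCm38), with FLAIR 2.0.0 for isoforms. The summing of isoforms and the use of strand are not stated, and splicing was not analysed here. Symbols, positions and lengths came from GENCODE M21, which matched 16429 of 16449 identifiers. The analysis used edgeR 4.0.16 and R 4.3.3 (filterByExpr at its defaults of 10 counts and a total of 15, TMM, two-sided quasi-likelihood test, Benjamini-Hochberg over 5878 genes, threshold 0.05). The biological coefficient of variation was 10.5%. CPM are relative to the TMM-scaled sum of counts over the 5878 tested genes, not over the whole table, and log2 CPM a prior count of 2. SEs were derived from the log2 fold change and its F statistic. All CHD genes, Tut1, overlapping genes with counts and the 5 genes most like Chd5 were named, with at most 4 called genes per list and, for NuRD partners, the 2 most abundant and the 2 with the largest estimates. Hba-x, Map2, the C1q genes and the genes named as lying at 0 were named after their values were seen. The same holds for the uncalled genes of the ChAHP list and for Gatad2a, Hdac2, Mbd2 and Mta3. The members and lists were chosen with earlier results of these data known. Alternatives covered scaling, filter, test (DESeq2 1.42.0, limma-voom in limma 3.58.1), replicate block, depth, transcript length and leaving out each library. The procedure was tested on simulated data.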

Additional observations from a re-analysis of the deposited data

How the results depend on the processing

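EdgeR called 121 genes, DESeq2 11, a fit with the replicate number as a block 76 (74 of them among the 121) and thinning to the smallest library 60. Leaving out each library gave 3 to 108, with 3 without KO-labelled replicate 1, 35 without KO-labelled replicate 2 and 75 without WT replicate 1. The calls were 67.8% higher in the KO-labelled libraries, against 81.4% of 129 with total counts alone. The number of CHD genes past the threshold, from which nothing is read because Chd5 led to their choice, was 0 to 1 with libraries left out (0 without KO-labelled replicate 1). The Tut1 estimate was 1.49 (edgeR adjusted p = 0.0741) after thinning and 1.39 to 2.13 with libraries left out, and DESeq2 gave it no adjusted p. The Chd5 share in the KO-labelled libraries was 16.4% after division by length. Of 15 changes of sign among uncalled CHD genes, Chd2 was 0.0521 with total counts and 0.0607 after thinning, Chd4 was 0.0521 with total counts, 0.00493 by limma-voom and 0.00825 under the block, and Chd8 was −0.0298 with the length trend removed. With libraries left out, Chd2 ranged from −0.18 to 0.15, Chd4 from −0.22 to 0.22, Chd6 from −0.0705 to 0.337, Chd7 from −0.27 to 0.12 and Chd8 from −0.15 to 0.27. Cbx5 passed the threshold by limma-voom and not by DESeq2. It also missed the threshold with total counts, without the filter, under the block and after thinning. Called neuron markers ranged from 1 to 4. The causes were not tested. In WT and in the KO-labelled libraries, the differences between replicates 1 and 2 correlated at −0.06 across genes. Counts this low pull such a value towards 0, and sex differed within WT only. Whether replicate numbers pair the libraries can therefore not be read from it. Few counts limit the precision, and a median tested gene had 19 to 25.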

Other observations

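Other families of ATP-driven remodelers were described by the same counts as the NuRD partners. Of all tested genes, 14.2% had an unadjusted p below 0.05 by edgeR, 3.32% by DESeq2 and 13.6% by limma-voom. None of 21 tested genes of the BAF complex passed the threshold by edgeR, DESeq2 or limma-voom (1, 0 and 1 at an unadjusted p below 0.05), and their median log2 fold change was 0.07. The gene with the low unadjusted p was Actl6b, the BAF subunit of neurons, which had 51.5 and 25.1 CPM in WT against 79.7 and 66.0 CPM in the KO-labelled libraries (0.95 ± 0.38). It met the minimum count in both KO-labelled libraries and not in both WT libraries, so that nothing is read from this p. None of 9 ISWI genes passed the threshold by these tools (0, 0 and 0), with a median of −0.13. None of 11 INO80 and SRCAP genes passed it (1, 0 and 2, Ep400 and, by limma-voom, Ruvbl2), with a median of 0.00175. None of 8 other SNF2 ATPase genes passed it (2, 1 and 1), with a median of −0.17 and 7 of 8 estimates below 0. The genes with a low unadjusted p were Hells, a remodeler needed for DNA methylation (log2 fold change −0.82 ± 0.25), and, by edgeR, Rad54l, a recombination factor (−1.45 ± 0.59), which met the minimum count in the WT libraries alone. DESeq2 gave no adjusted p to 3, 3, 6 and 2 of the tested genes of these lists, in this order. The genes named here were chosen after their values were seen. The summed level of the BAF genes was 4901 and 5083 CPM in WT against 5033 and 5067 CPM in the KO-labelled libraries.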
